A study of Penaeus vannamei with 11 samples.

Results

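Cytoplasmic ribosomal proteins were followed in haemocytes, the circulating blood cells of the shrimp Penaeus vannamei. Their genes were taken by annotated name, as 40S or 60S ribosomal proteins, acidic stalk proteins and ubiquitin fusion ribosomal proteins that are not marked mitochondrial. No expression value entered this naming rule, which was chosen with earlier results of these data known. It gave 96 of the 18803 genes in the table, of which 55 were named for the large subunit, 34 for the small subunit, 6 for the stalk (P0, P1 and P2) and 1 for L40, which is made as a fusion with ubiquitin.

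The cytoplasmic ribosome joins a small subunit, which reads the messenger RNA, to a large subunit, which forms the peptide bond, and each holds ribosomal RNA and many proteins present in about equal amounts. Because the proteins are needed together, their messages are usually among the most abundant in a cell and tend to move as one block with growth and with the rate of protein synthesis. Haemocytes carry out much of a shrimp's cellular immunity and also make antimicrobial peptides and clotting proteins.

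The groups were 3 Vibrio males and 2 control males, and 3 Vibrio females and 3 control females. Vibrio marks the samples whose agent is given as the bacterium Vibrio parahaemolyticus, a shrimp pathogen, and the other samples have control as their agent. All samples share the same source, hemolymph drawn into anticoagulant, with the pelleted cells lysed in Trizol for total RNA, and all carry immune as their treatment. The labels give neither dose, route, time after exposure, age nor strain, and they do not say whether replicates are separate animals, so p-values here measure only the spread between these samples. A control male numbered 1 is not analysed here. The series title concerns the relation of sex to disease resistance, so the comparisons were Vibrio against control within each sex, the difference of those effects between the sexes, and males against females with and without Vibrio.

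The table holds raw counts and FPKM (fragments scaled by gene length and library size), and library totals ran from 39733829 counts in control male 2 to 53837438 in Vibrio female 3. Levels between genes are compared in FPKM, and levels between libraries in CPM (counts scaled to a common depth of 1000000 with edgeR's TMM factors). Of 18803 genes, 14295 passed the filter on low counts, and 92 of the 96 ribosomal protein genes were among them. The labelled cell type was checked against 31 haemocyte markers, whose summed level was 19448 to 42485 CPM over the libraries and was led by a penaeidin (LOC113808997), an antimicrobial peptide of haemocytes, at a mean of 12182 FPKM. Summed levels were 292 to 2792 CPM for 95 hepatopancreas markers, 8.64 to 24.7 CPM for 42 muscle markers and 0 to 2.91 CPM for 5 gonad markers, each led by hemocyanin (LOC113830072), a muscle myosin heavy chain (LOC113824801) and vitellogenin (LOC113804022) at 96.0, 6.54 and 0.087 FPKM in that order. Control male 2 and Vibrio female 3 stood apart from the other libraries in the level or balance of the ribosomal protein genes. Medians over all of these genes, and single fold changes that rest on those libraries, are also given without them. In whole cell pellets, fewer cells of a type and less RNA per cell cannot be told apart.

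Ribosomal protein messages were among the most abundant in these cells. Of the 96 genes, 48 were among the 100 genes with the highest mean FPKM and 75 among the highest 200. Their median was 1317 FPKM, against 3.91 FPKM over all genes tested. The median was 1162 FPKM for large subunit genes, 1401 FPKM for small subunit genes and 784 FPKM for stalk genes. Most ribosomal protein genes are short: 86 of the 90 tested with at least 5 FPKM lay in the shortest 25% of 6485 such genes, by counts per FPKM.

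Among large subunit genes the highest was L8 (LOC113804304), a protein near the peptidyl transferase centre, at 3186 ± 813 FPKM (SD, n = 11 libraries). L27a (LOC113818964) followed at 2901 ± 839 FPKM and L10 (LOC113808364), which is added late in the assembly of the large subunit, at 2594 ± 401 FPKM. L13a (LOC113813736) at 2473 ± 529 FPKM, L5 (LOC113830368), which binds 5S ribosomal RNA, at 2434 ± 550 FPKM, and L7a (LOC113817911) at 2413 ± 273 FPKM completed the highest 6. Neighbours in this order differed by less than their spread over libraries.

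Among small subunit genes S3a (LOC113802303) was highest at 2652 ± 337 FPKM, ahead of S4 (LOC113809517) at 2530 ± 372 FPKM. S6 (LOC113804422), which in mammals and flies is phosphorylated by S6 kinase downstream of TOR, had 2416 ± 280 FPKM. S8 (LOC113828345) had 2408 ± 597 FPKM, S20 (LOC113809508) 1967 ± 490 FPKM and S7 (LOC113815515) 1904 ± 597 FPKM. These neighbours also lay within their spread over libraries.

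The stalk proteins form the lateral arm of the large subunit that calls in the elongation factors, with P0 as its base and P1 and P2 as the acidic arms. P1 (LOC113815887) was the most abundant at 2613 ± 473 FPKM. P0 came from 2 genes, LOC113829287 at 1607 ± 417 FPKM and LOC113829291 at 651 ± 124 FPKM. P2 came from 3 genes, LOC113810148 at 868 ± 211 FPKM, LOC113802449 at 700.3 ± 176 FPKM and LOC113811935 at 142 ± 47.5 FPKM. The ubiquitin fusion L40 (LOC113829047) had 1428 ± 431 FPKM, within the range of the subunit proteins.

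**Figure D1:**
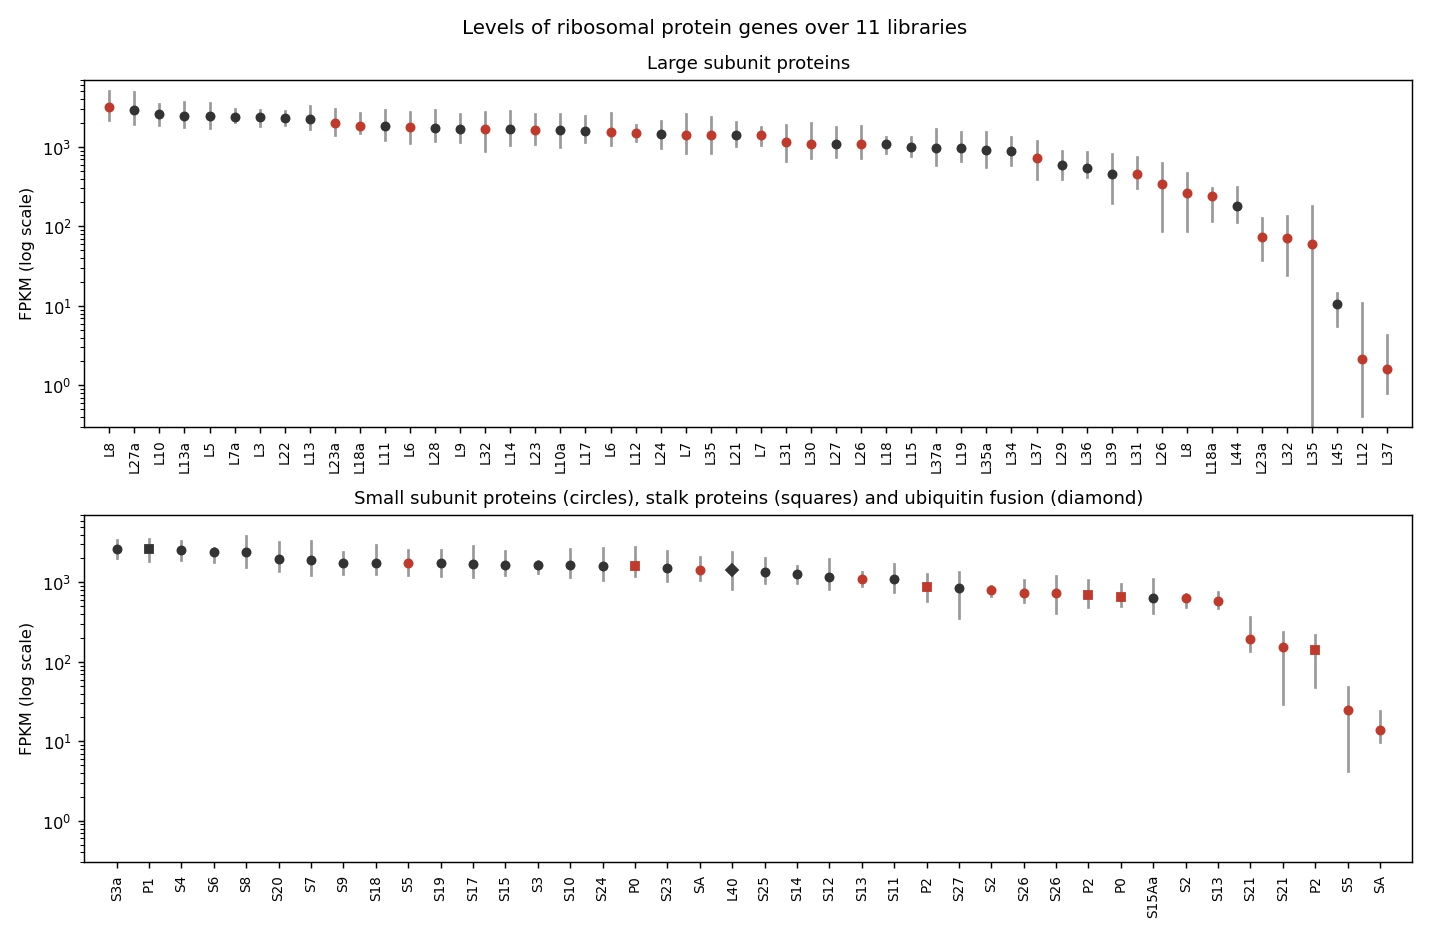
Mean FPKM of the 92 tested ribosomal protein genes on a log axis, from the highest to the lowest, with bars from the lowest to the highest of 11 libraries; red marks proteins named by more than 1 gene. Of the 96 genes, 75 had means of at least 500 FPKM, and 1 L35 gene has a bar that runs to 0 and is drawn to the edge of the axis.

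At the low end, 12 genes had means under 100 FPKM. The 4 that did not pass the filter were further copies of proteins with a strongly expressed gene: L23 (LOC113804188) with at most 6 counts in a library, L12 (LOC113810931) with at most 10, L30 (LOC113822088) with at most 5 and S2 (LOC113827176) with at most 10. L45 (LOC113812225), at 10.7 FPKM, carries a name otherwise used for a mitochondrial protein and is kept because its annotation does not say mitochondrial. Of 79 standard protein names, 71 were matched by at least 1 gene. S16, S27a, S28, S29, S30, L4, L38 and L41 matched none under this rule and are not analysed here. Of the 96 identifiers, 73 were also listed in the RefSeq annotation of the newer assembly ASM4276789v1.

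The ribosomal protein genes together took 8.86, 9.37 and 8.82% of all counts in Vibrio males, against 13.4 and 8.66% in control males. They took 10.1, 11.3 and 9.15% in Vibrio females, against 7.07, 9.46 and 8.93% in control females. Control male 2 alone was above every other library, and the groups overlapped within each sex. Per length, the share of summed FPKM was 17.9, 17.8 and 18.3% in Vibrio males and 24.5 and 17.2% in control males. It was 20.5, 21.4 and 18.3% in Vibrio females and 15.4, 19.3 and 18.2% in control females. The large and small subunits moved together, since the ratio of their summed FPKM stayed between 1.47 and 1.62 over the libraries. Control male 2 was also the shallowest library. Other genes as short as these took 21.1% of its counts, within the 16 to 21.7% over all libraries. The part of depth in its high level was not tested.

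**Figure D2:**
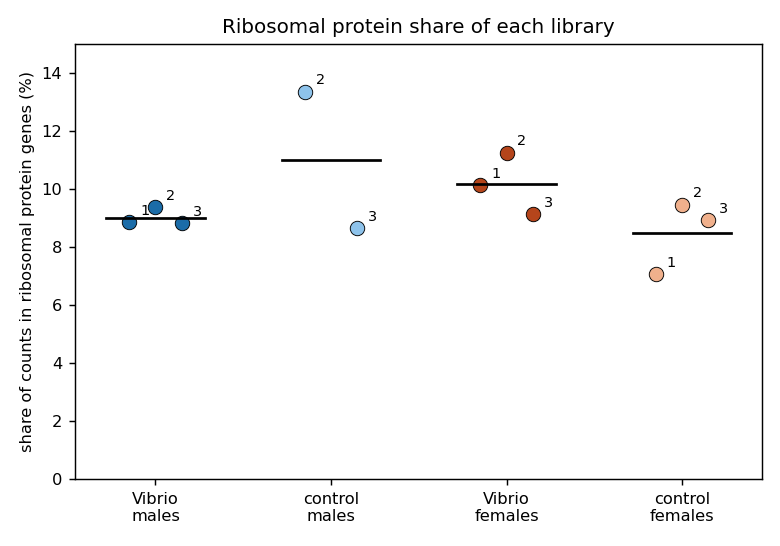
Percent of each library's counts in the 96 ribosomal protein genes, by group, with replicate numbers beside the points and a line at the group mean. Control male 2 stands at 13.4%, and the other 10 libraries lie between 7.07 and 11.3%.

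The block moved together from library to library, but not all of it. Of the 92 tested genes, 76 had their highest level in control male 2 and 58 their lowest in control female 1. Control male 2 was above control male 3 by a median ratio of 2.03 in CPM. The ratio was at least 1.5 for 72 genes, which is 78.3% of them, against 20.2% of the 6485 genes tested with at least 5 FPKM. L13a followed the block most closely: its level relative to the median ribosomal protein gene ranged over 0.16 on the log2 scale. It had 1581, 1814 and 1618 CPM in Vibrio males, 3193 and 1588 CPM in control males, 1958, 2427 and 1609 CPM in Vibrio females and 1295, 1698 and 1789.6 CPM in control females.

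A smaller set of 17 genes stayed under a ratio of 1.2 between the control males. They were both P0 genes, both SA genes, the 2 expressed S2 genes, both L18a genes, L10, L18, L36, S6, L45, the L7 gene LOC113806834 and the weakly expressed copies of L12, S5 and L37. P0 (LOC113829287) had 1831, 2008 and 1899.5 CPM in Vibrio males and 1679 and 1737 CPM in control males. It had 1685, 1826 and 3208 CPM in Vibrio females and 1673, 1856 and 1969.6 CPM in control females. Its outlying library was thus Vibrio female 3 and not control male 2. Of the 17 genes, 10 were higher in Vibrio female 3 than in both other Vibrio females and 6 were lower than in both, with a median ratio of 1.24 to the mean of the other Vibrio females. Of the 72 genes that were high in control male 2, 59 were lower in Vibrio female 3 than in both others and 2 higher, with a median ratio of 0.64. This division was made after the values were seen and is a description without a test. SA is the laminin receptor homologue of the small subunit, S2 lies near the entry of the messenger RNA, and P0 is the base of the stalk. L40 was among the genes low in Vibrio female 3, with 546 CPM there against 1136 and 1349 CPM in the other Vibrio females.

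**Figure D3:**
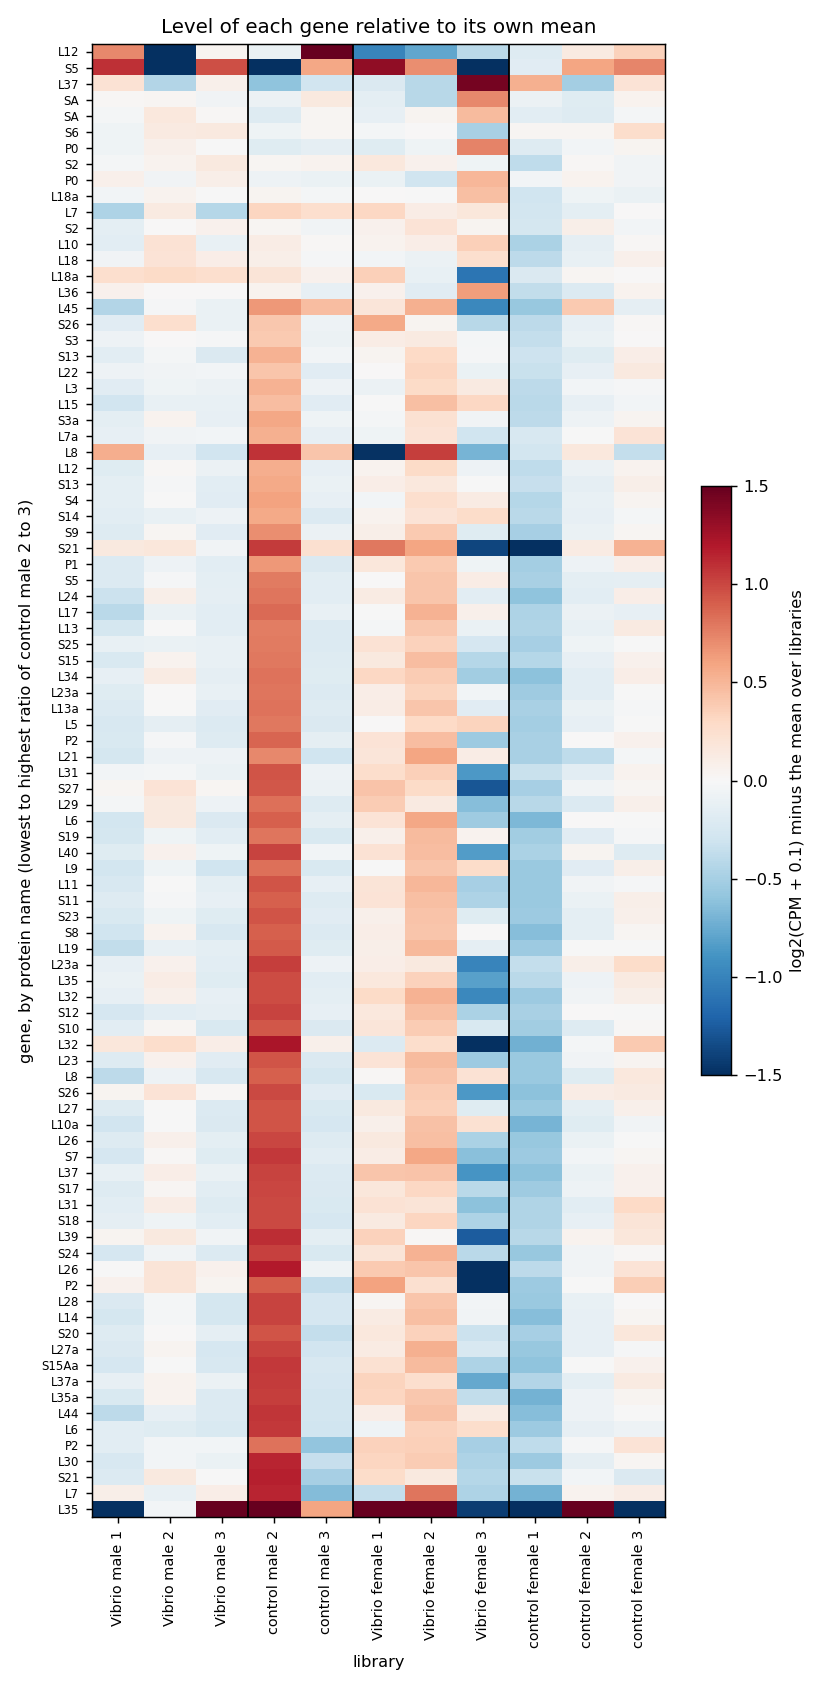
Level of each of the 92 tested genes relative to its own mean, as log2(CPM + 0.1) minus the mean over 11 libraries, capped at 1.5 in colour; genes are ordered by the ratio of control male 2 to control male 3, lowest at the top. The column of control male 2 is red for most genes, 76 of which are highest there, and pale for most of those at the top, several of which are red in Vibrio female 3.

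In females, no ribosomal protein gene passed the test for Vibrio against control (edgeR quasi-likelihood test, Benjamini-Hochberg adjusted over 14295 genes), nor did any other gene (0% called). At an unadjusted p under 0.05 there was 1 ribosomal protein gene, beside 579 genes or 4.05% of all tested. DESeq2 called 21 genes or 0.147%, none of them ribosomal. Among the ribosomal protein genes, 84 had a fold change above 0 and 8 below, with a median log2 fold change of 0.27. Over all genes 55.0% were above 0, with a median of 0.053. The median was 0.31 for the large subunit, 0.26 for the small subunit and 0.19 for the stalk. The median was 0.14 without Vibrio female 2, with 70 genes above 0 and 22 below. It was also 0.14 without control female 1, and it was 0.43 without Vibrio female 3.

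L21 (LOC113808507), a large subunit protein, had the smallest p among them. It had 1202, 1595 and 1143 CPM in Vibrio females and 758, 810.0 and 1036 CPM in control females. All 3 Vibrio females were above all control females. Its log2 fold change was 0.60 ± 0.27 (SE), with an edgeR unadjusted p of 0.0482 and an adjusted p of 0.986. L15 (LOC113803755) averaged 1095 ± 172 CPM in Vibrio females and 803 ± 104 CPM in control females (SD, n = 3 each), a log2 fold change of 0.45 ± 0.21 (SE). L10 averaged 2732 ± 325 CPM in Vibrio females and 2125 ± 360.0 CPM in control females (SD, n = 3 each), a log2 fold change of 0.36 ± 0.20 (SE). Neither passed the test, each with an edgeR adjusted p of 0.986.

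For 13 genes (14.1%), every Vibrio female was above every control female, against 2.48% of all genes tested. Besides L21, L15 and L10 these were L5, L6 (LOC113826493), L7 (LOC113806834), L10a, L17, L18a (LOC113810599), L44, S5 (LOC113799988), S14 and S19. For 2 genes, S6 and the weakly expressed L12 copy LOC113810192, every Vibrio female was below, against 3.90% of all genes. S6 had 2667, 2727 and 1952 CPM in Vibrio females and 2779, 2791 and 3275 CPM in control females. Only Vibrio female 3 lay well under the control females. The log2 fold change was -0.27 ± 0.19 (SE), and it was -0.13 without that library. The abundant L8 gene averaged 3259.7 ± 470.0 CPM in Vibrio females and 2481 ± 602 CPM in control females (SD, n = 3 each), and the groups overlapped. S3a averaged 2719 ± 306 CPM in Vibrio females and 2379 ± 357 CPM in control females (SD, n = 3 each), also with overlap. Of 28 haemocyte markers tested, 8 were higher and 20 lower with Vibrio, at a median log2 fold change of -0.27. Unadjusted p was under 0.05 for 5 haemocyte markers, beside 4.05% of all genes. Their summed level was 19543 to 20682 CPM in Vibrio females and 19448 to 42485 CPM in control females. Hepatopancreas markers had 56 of 75 above 0 and 19 below, at a median of 0.53, and 0 had an unadjusted p under 0.05. Their summed level was 372 to 2080 CPM in Vibrio females and 353 to 1777 CPM in control females. The part of either in the ribosomal protein values was not tested.

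In males, again no ribosomal protein gene and no other gene passed the edgeR test (0% called), and DESeq2 called 11 genes or 0.0769%, none ribosomal. Unadjusted p was under 0.05 for 4 ribosomal protein genes and for 345 genes or 2.41% of all tested. Here 10 genes had a fold change above 0 and 82 below, against 47.5% of all genes above 0. The median log2 fold change was -0.55, against -0.028 over all genes. The median was -0.58 for the large subunit, -0.48 for the small subunit and -0.33 for the stalk. This direction rested on control male 2. Without it, 73 genes were above 0 and 19 below, with a median of 0.076. Without control male 3 the median was -0.96. The fits without control male 2 and without control male 3 each leave the other control male alone in its group. They assume that it varies like the other groups, so counts by unadjusted p are not given for either fit.

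The L8 gene shows the pattern of most members. It had 2117, 2626 and 2362 CPM in Vibrio males and 5161 and 2306 CPM in control males. Control male 3 lay within the Vibrio males and control male 2 above them. The log2 fold change was -0.66 ± 0.33 (SE) with all libraries and 0.040 without control male 2. S3a had 2362, 2702 and 2393 CPM in Vibrio males and 3892 and 2489.8 CPM in control males. Its log2 fold change was -0.36 ± 0.24 (SE) with all libraries and -0.0012 without control male 2.

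The 3 genes with the smallest p in males did not share a pattern. The L12 copy LOC113810192 had 2.48, 0.429 and 1.51 CPM in Vibrio males and 1.36 and 10.5 CPM in control males. Only control male 3 was high, so the log2 fold change of -2.01 ± 0.81 (SE) became 0.13 without that library. L44 (LOC113828518), a large subunit protein, had 106, 128 and 119.9 CPM in Vibrio males and 292 and 114 CPM in control males. It followed control male 2, and its log2 fold change of -0.79 ± 0.34 (SE) became 0.043 without it. L7 (LOC113806834) had 1044, 1572 and 1070.4 CPM in Vibrio males and 1793 and 1710.0 CPM in control males. Both control males were above all 3 Vibrio males, and the log2 fold change of -0.51 ± 0.22 (SE) stayed between -0.73 and -0.41 with any library left out. None of these passed the test, each with an edgeR adjusted p of 0.933.

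For 3 genes every Vibrio male was above both control males, against 13.3% of all genes tested. These were both P0 genes and the lesser L18a gene (LOC113828620). P0 (LOC113829287) averaged 1913 ± 89.2 CPM in Vibrio males and 1708 ± 40.8 CPM in control males (SD, n = 3 and 2), and its log2 fold change was 0.16 ± 0.27 (SE). For 4 genes, S12, L7 (LOC113806834), S21 (LOC113810107) and L45, every Vibrio male was below both, against 11.5% of all genes. These shares of 92 genes lie under the background in both directions. Hepatopancreas markers moved with the same groups: 14 of 75 tested were above 0 and 59 below, at a median log2 fold change of -1.70, and none was called. Their summed level was 292 to 673 CPM in Vibrio males and 875 to 2792 CPM in control males, with 28 to 41 of 95 at a count of 0 in Vibrio males and 15 to 38 in control males. Within the control males the level was lower in control male 2, at 875 CPM, than in control male 3, while the ribosomal protein genes were higher there. Of 14 muscle markers tested 12 were also below 0, with a summed level of 8.64 to 10.9 CPM in Vibrio males and 16.2 to 19.7 CPM in control males. Unadjusted p was under 0.05 for 3 muscle markers and 2 hepatopancreas markers, beside 2.41% of all genes. The part of either in the ribosomal protein values was not tested.

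The difference between the Vibrio effects of males and females was tested directly, and no ribosomal protein gene passed (0% of all genes called by edgeR). DESeq2 called 28 genes or 0.196%, none ribosomal. At an unadjusted p under 0.05 there were 18 ribosomal protein genes, or 19.6% of 92, beside 800 genes or 5.60% of all tested. The difference, males minus females, was below 0 for 87 genes and above for 5, against 45.9% of all genes above 0. Its median was -0.77 on the log2 scale, against -0.076 over all genes. Without control male 2 the median was -0.21, with 73 genes below 0 and 19 above. Without control male 3, where control male 2 stands alone in its group, the median was -1.19. Without Vibrio female 3 the median was -0.94. Unadjusted p was then under 0.05 for 41 ribosomal protein genes, beside 2306 of 14119 genes. Without Vibrio female 2 the median was -0.60, with 3 such genes beside 730 of 14241. Without control female 1 it was -0.62, with 2 such genes beside 381 of 14232. Leaving out Vibrio male 1, Vibrio male 3 or control female 2 also moved the count, to 2, 6 and 10 ribosomal protein genes. Beside these were 408 of 14235, 486 of 14220 and 1373 of 14206 genes. No count is given without either control male, since the other then stands alone in its group. How far the 18 genes rest on control male 2 is thus shown only by the median, which shrank to -0.21 without it. Markers of other cells moved in the same comparison. The difference was below 0 for 61 of 75 hepatopancreas markers, at a median of -2.25, and for 12 of 14 muscle markers, at a median of -1.79. It was above 0 for 20 of 28 haemocyte markers, at a median of 0.30. The part of these in the ribosomal protein values was not tested.

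L7 (LOC113806834) had the smallest p, with a difference of -0.85 ± 0.29 (SE) and an unadjusted edgeR p of 0.0160. Its 1786, 1555 and 1611 CPM in Vibrio females were all above the 1189, 1294 and 1446 CPM in control females, opposite to its order in males. The adjusted p was 0.740 by edgeR, and the difference stayed between -1.06 and -0.74 with any library left out. L17 (LOC113806281), a protein of the peptide exit tunnel, had a difference of -1.10 ± 0.39 (SE), and L10a (LOC113823525), a protein of the L1 stalk, one of -1.17 ± 0.44 (SE). For L10a, the levels were 1102, 1333 and 1154 CPM in Vibrio males against 2582 and 1131 CPM in control males. They were 1413, 1823 and 1567 CPM in Vibrio females against 827, 1185 and 1298 CPM in control females. The difference for L10a was -0.46 without control male 2, that for L17 was -0.53, and both had an edgeR adjusted p of 0.740 with all libraries.

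**Figure D4:**
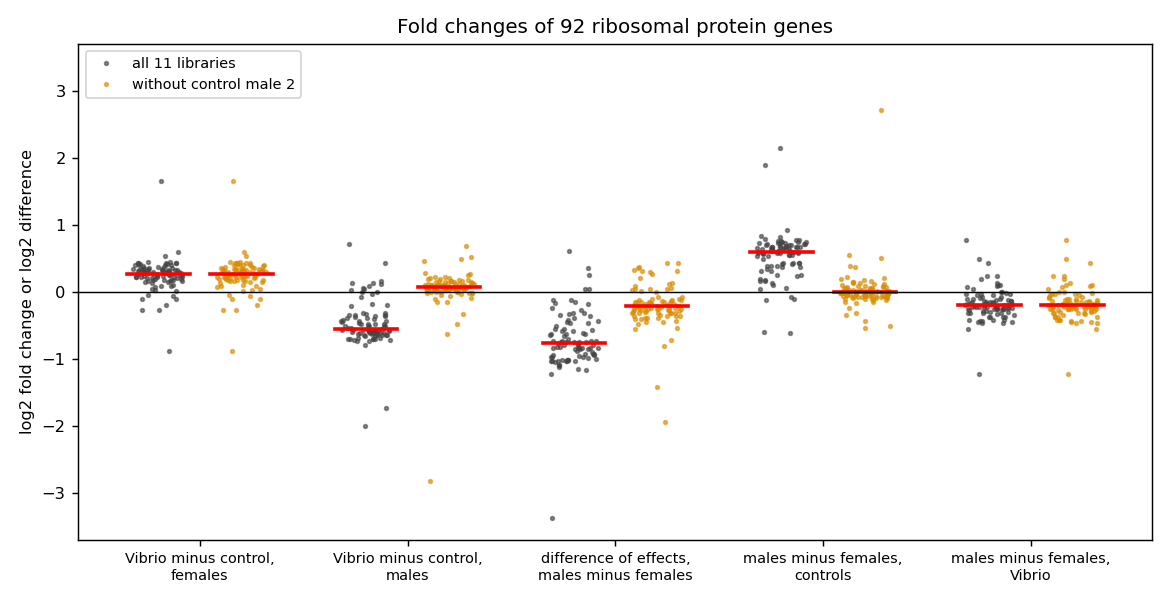
Log2 fold change of each of 92 ribosomal protein genes in 5 comparisons, with all 11 libraries (grey) and without control male 2 (orange); red lines are medians. Without control male 2 the median moves to 0.076 for Vibrio against control in males and to -0.0063 for males against females in controls, while the medians of 0.27 in females and -0.20 between Vibrio males and Vibrio females do not depend on that library.

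Between the sexes in controls, 87 ribosomal protein genes had a fold change above 0 and 5 below, against 48.5% of all genes above 0. The median log2 fold change was 0.60, against -0.019 over all genes. None was called by edgeR (0% of all genes) or by DESeq2, which called 11 other genes or 0.0769%. Unadjusted p was under 0.05 for 6 ribosomal protein genes, beside 698 genes or 4.88%. Without control male 2 the median was -0.0063, with 42 genes above 0 and 50 below, and without control male 3 it was 1.05. S5 (LOC113799988), a small subunit protein near the exit of the messenger RNA, had the smallest p. It had 2778 and 1459 CPM in control males and 1154, 1463 and 1478 CPM in control females. Control male 3 lay among the control females. The log2 fold change was 0.63 ± 0.27 (SE), with an edgeR adjusted p of 0.756, and it was 0.095 without control male 2. L10a and the L12 copy LOC113810192 had log2 fold changes of 0.75 ± 0.33 and 1.9 ± 0.81 (SE). That of L10a was 0.035 without control male 2, and that of the L12 copy was -0.20 without control male 3. For 7 genes both control males were above all control females, against 9.54% of all genes: L10, both L18a genes, L7 (LOC113806834), the L8 copy LOC113807140, L45 and S2 (LOC113818562). For 1 gene, P0 (LOC113829291), both were below, against 11.8% of all genes. Of 28 haemocyte markers, 5 were above 0 and 23 below, at a median of -0.39, and 3 had an unadjusted p under 0.05. Their summed level was 24115 to 27579 CPM in control males and 19448 to 42485 CPM in control females. Their part in the ribosomal protein values was not tested.

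With Vibrio, the fold change of males over females was below 0 for 79 of 92 ribosomal protein genes and above for 13, against 39.8% of all genes above 0. The median log2 fold change was -0.20, against -0.092 over all genes. None was called by edgeR (0% of all genes) or by DESeq2, which called 13 other genes or 0.0909%. Unadjusted p was under 0.05 for no ribosomal protein gene, beside 486 genes or 3.40%. This comparison does not use the control males, and the median was -0.36 without Vibrio female 3 and -0.074 without Vibrio female 2, where 33 genes were above 0 and 59 below. For 15 genes (16.3%) all Vibrio males were below all Vibrio females, against 2.95% of all genes, and for none above, against 4.82%. L15 was one of them, with 748, 839.7 and 845 CPM in Vibrio males against 909, 1246 and 1132 CPM in Vibrio females. Its log2 fold change was -0.43 ± 0.21 (SE). L21 had 880.3, 1007 and 1004 CPM in Vibrio males and a log2 fold change of -0.45 ± 0.27 (SE). L7 (LOC113806834) had -0.43 ± 0.20 (SE), with overlapping groups. All 3 had an edgeR adjusted p of 1. The comparison shares the Vibrio females with the one against control females, where L15 and L21 were high. Hepatopancreas markers also differed here: 64 of 75 were lower in Vibrio males, at a median of -2.61, and 14 had an unadjusted p under 0.05. Their summed level in Vibrio females was 372 to 2080 CPM. Of 28 haemocyte markers, 15 were above 0 and 13 below, and 4 had an unadjusted p under 0.05. Of 14 muscle markers tested, 13 were below 0 and 1 above, at a median of -2.09, and 1 had an unadjusted p under 0.05. The part of these markers in the ribosomal protein values was not tested.

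Several proteins were named by more than 1 gene: 51 of the 72 protein names had 1 gene and 21 had several, 45 genes in all. L12, P2 and S2 had 3 genes each, and L6, L7, L8, L18a, L23, L23a, L26, L30, L31, L32, L35, L37, P0, S5, S13, S21, S26 and SA had 2. How reads that match several copies were counted is not given in the sources used here, so the split between copies is uncertain. For L12, L23, L23a, L30, L32, L37, S5 and SA, 1 gene held nearly all of the protein's counts in every library, with the lowest share, 95.2%, for L37 in Vibrio female 3. In L6, L7, S2, S13, S21 and S26 both expressed genes held large shares.

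The split was steady for some proteins and variable for others. For S13, LOC113810229 held 41.3 to 44.8% of the counts over all libraries, and for S2, LOC113818562 held 41.8 to 46.1%. For P0, LOC113829291 held 25.5 to 31.1%. For L7, in contrast, LOC113806834 held 37.9% in control male 2 and 66.7% in control male 3. The other L7 gene, LOC113805279, had 2943 CPM in control male 2 and 853 CPM in control male 3, so that only this gene followed the block there. The L7 genes summed gave 2465, 2812 and 2497 CPM in Vibrio males, 4736 and 2563 CPM in control males, 2831, 3882 and 2578 CPM in Vibrio females and 2006, 2676 and 2893 CPM in control females. For the sum, the groups overlapped in both sexes, whereas they did not for LOC113806834 alone. For S21, LOC113810107 held 15.1% in control female 1 and 52.3% in control male 3, and for S26, LOC113800567 held 29.5% in Vibrio female 1 and 52.3% in control male 2.

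Vibrio female 3 had an extreme split for many of these proteins. The lesser gene of L26 held 8.25% there and 19.7 to 22.8% in the other libraries. That of L18a held 3.91% there and 10.0 to 13.2% in the others, and that of L23a 1.82% there and 3.06 to 4.2% in the others. For P2, LOC113811935 held 3.29% there and 5.85 to 7.98% in the others. For L6, LOC113826493 held 62.6% there and 43.5 to 51.9% in the others. The L6 genes lie 60432 bases apart on the same strand, the P0 genes 29855 and the expressed S2 genes 19110. The L26 genes LOC113821406 and LOC113821405 overlap on the same strand, so reads could belong to either.

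**Figure D5:**
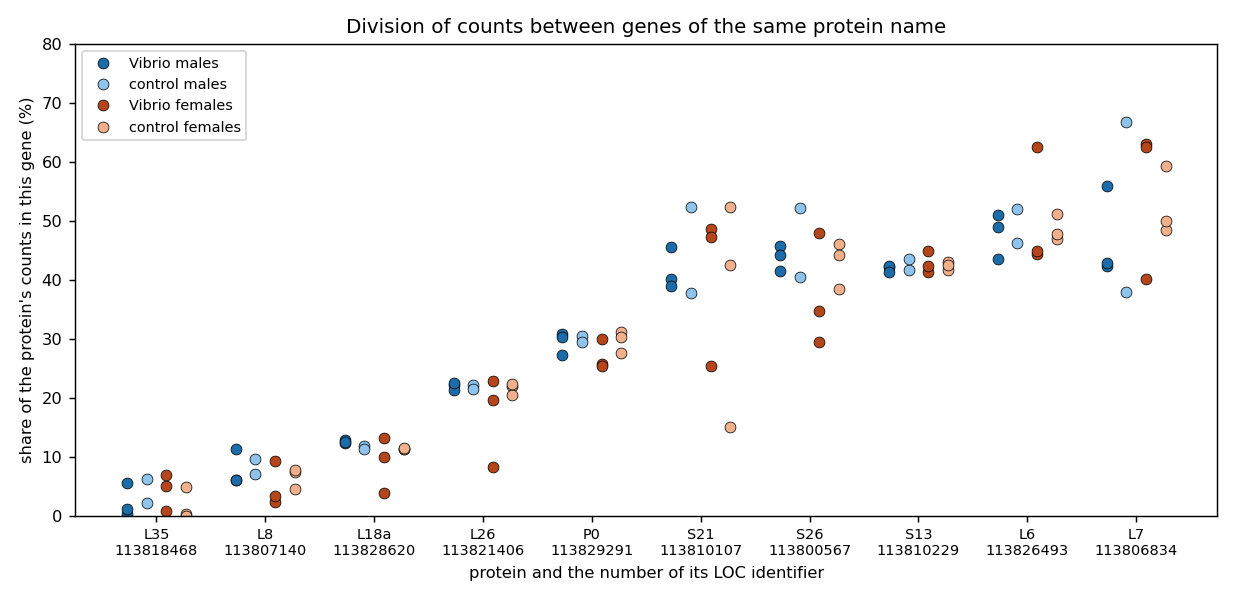
Percent of a protein's counts held by 1 of its 2 genes, for 10 proteins, with a point for each library in the colour of its group. S13 and P0 stay within narrow bands, L7 and S21 spread widely within groups, and the lowest L26 and L18a points are Vibrio female 3.

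A few genes left the block altogether. The level relative to the median ribosomal protein gene ranged by less than 1 on the log2 scale for 67 of 92 genes, with a median range of 0.64, and by more than 2 for 8. Among genes with at least 5 FPKM the widest was the lesser L35 gene, LOC113818468. It had 110, 494 and 2113 counts in Vibrio males and 3502 and 758 in control males. It had 2341, 3527 and 200 counts in Vibrio females and 73, 2030 and 0 in control females. High and low libraries occurred in every group, and a count of 0 in control female 3 allows up to 0.0616 CPM by counting error only. The lesser S5 gene, LOC113825894, was next, with 9.06, 1.07 and 8.25 CPM in Vibrio males, 1.10 and 6.31 CPM in control males, 10.6, 6.88 and 0.893 CPM in Vibrio females and 3.7, 6.35 and 7.04 CPM in control females. It was low in 1 Vibrio male, 1 control male and 1 Vibrio female, without a group pattern.

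The S21 gene LOC113810107 had 65.2, 66.3 and 56.8 CPM in Vibrio males and 122 and 69.6 CPM in control males. It had 102, 89.2 and 22.7 CPM in Vibrio females and 12.6, 64.5 and 84.8 CPM in control females. Among Vibrio females and among control females, 1 library lay several times below the others. The lesser L8 gene, LOC113807140, had 268, 169 and 151 CPM in Vibrio males, 389 and 246 CPM in control males, 65.6, 379 and 114 CPM in Vibrio females and 152, 205 and 144 CPM in control females. Its spread was widest among Vibrio females. By contrast S24 and L14, which lie head to head 105 bases apart on opposite strands, kept a CPM ratio of S24 (LOC113821228) to L14 (LOC113821227) between 0.571 and 0.765.

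Other genes of the translation apparatus were read from lists taken by name, and edgeR called no list member in any comparison. Unadjusted p for Vibrio in females was under 0.05 for 2 of 43 initiation factors and 2 of 64 assembly factors, beside 4.05% of all genes. In males it was for 3 of 43 initiation factors, 1 of 64 assembly factors and 2 of 80 mitochondrial ribosomal proteins, beside 2.41% of all genes. DESeq2 called 1 list member, the initiation scaffold eIF4 gamma 1 (LOC113823483), in 3 comparisons, all of which use the same control males. It had 28.8, 18.3 and 33.0 CPM in Vibrio males, 10.6 and 7.11 CPM in control males, 29.9, 23.9 and 27.2 CPM in Vibrio females and 47.5, 27.1 and 52.2 CPM in control females. Every Vibrio male was above both control males, which held for 13.3% of all genes tested. Both control males were below all control females, which held for 11.8%. Its log2 fold change for Vibrio in males was 1.56 ± 0.36 (SE) by DESeq2, with an adjusted p of 0.0240, and 1.59 ± 0.35 (SE) by edgeR, with an adjusted p of 0.933. With all libraries this gene ran opposite to most ribosomal protein genes in males. Without control male 2, however, 73 ribosomal protein genes were above 0 and 19 below. The list held another gene named eIF4 gamma 1, LOC113825716, which DESeq2 did not call.

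The whole lists gave the following counts with all 11 libraries. List medians without control male 2 were not taken, so the part of that library in the male values was not tested. Of 80 mitochondrial ribosomal proteins tested, which build the separate ribosome of the mitochondrion, 62 were above 0 and 18 below for Vibrio in females, at a median of 0.14. In males 5 were above 0 and 75 below, at a median of -0.45. Translation elongation factors were above 0 in females for 10 of 10 genes, at a median of 0.19, and below 0 in males for 9 of 10, at a median of -0.32. Their most abundant gene, elongation factor 1-alpha (LOC113820946), had 13911 and 13738 CPM in control males 2 and 3 and did not follow the ribosomal protein genes there. Of 43 initiation factors tested, 35 were above 0 in females and 34 below 0 in males, at medians of 0.15 and -0.34. The most abundant of them, a subunit F of eIF3 (LOC113800382), had 743 CPM in control male 2 and 254 to 498 CPM in the other libraries, as most ribosomal protein genes were high there. The most abundant mitochondrial one, L53 (LOC113807883), lay between 30.1 and 38.2 CPM in all libraries.

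Genes that act in making ribosomes were led by nucleolin (LOC113821241) at 234 ± 65.6 FPKM, the polymerase I subunit RPA43 (LOC113819921) at 15.7 ± 3.34 FPKM and, among regulators, the 4E-binding protein (LOC113815925) at 103 ± 17.8 FPKM (SD, n = 11 libraries). Of 64 ribosome assembly factors tested, 32 were above 0 and 32 below for Vibrio in females, at a median of -0.0016, and 50 were below 0 in males, at a median of -0.35. The list for RNA polymerase I, which transcribes ribosomal RNA, held 8 genes, among them 3 named RPA2 and the initiation factor RRN3, and 7 were below 0 in females, at a median of -0.30, and 5 above 0 in males, at a median of 0.11. Of 22 regulators of ribosomal protein synthesis, 14 were above 0 in females and 11 in males, at medians of 0.17 and -0.017. In control male 2 the median deviation from the mean over libraries was 0.87 on the log2 scale for the cytoplasmic ribosomal proteins. The value was 0.58 for mitochondrial ribosomal proteins, 0.50 for elongation factors, 0.39 for initiation factors, 0.36 for assembly factors, 0.095 for regulators and -0.26 for RNA polymerase I. In control male 3 it was -0.16 for cytoplasmic and 0.078 for mitochondrial ribosomal proteins, -0.081 for elongation, 0.0013 for initiation and 0.031 for assembly factors. Vibrio males had -0.22, 0.053 and -0.056 for mitochondrial ribosomal proteins and -0.16, -0.063 and -0.0015 for elongation factors. They had -0.25, 0.023 and 0.060 for initiation factors and -0.46, -0.12 and 0.21 for assembly factors.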

How the data were processed

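The authors deposited a table of raw counts per gene and of FPKM per gene for 11 libraries, per the file headers. Cutadapt 1.9 and FastQC were used, per the submitters' processing notes, and for the aligner, counter, strand setting and genome build the entry is: not given in the sources used here. Of the low counts, from 1 to 20, a share of 61.3 to 68.2% per library was even, and the deposited counts were tested unaltered. Whether both reads of a pair were counted is not stated in these sources; if they were, a count is not an independent fragment, and the depths and the limits from a count of 0 read as more precise than they are. Groups came from the labels' sex and agent. The members and lists were chosen with earlier results of these data known, and the marker lists were trimmed by name after the names were seen.

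Counts were filtered with filterByExpr, scaled by TMM and fitted over all 11 libraries with 4 group means (R 4.3.3, edgeR 4.0.16, glmQLFit with robust spread and glmQLFTest, two-sided). P-values were adjusted by the Benjamini-Hochberg method over 14295 genes, in 5 comparisons, and called under 0.05. Scripts were tested on simulated data. Shares, overlap of groups and levels relative to the set are descriptions. Intervals from counts cover counting error only, and a count of 0 was taken to allow 3 counts. Genes named were the 6 most abundant per subunit, the 3 with the smallest p per comparison, all stalk and ubiquitin fusion genes, shared protein names, the 4 with the widest relative level at 5 FPKM or more, and the most abundant gene of each list. Alternatives were DESeq2 1.42.0, RLE scaling, TMM without ribosomal protein genes, no filter, a replicate block, leaving out each library, and shares without the 10 most abundant genes. Sequences were not used here.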

Additional observations from a re-analysis of the deposited data

Results flagged for a closer look

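The L7 gene LOC113806834 was flagged for the difference of its Vibrio effects between the sexes, where it had the smallest p among ribosomal protein genes. Every Vibrio male was below both control males, which held for 11.5% of all genes tested. Every Vibrio female was above every control female, which held for 2.48%. The difference of the log2 fold changes, males minus females, was -0.85, with an edgeR adjusted p of 0.740, so it did not pass the test over all genes. The second L7 gene, LOC113805279, did not show it: it had 1421, 1240.1 and 1427 CPM in Vibrio males and 2943 and 853 CPM in control males, and 1045, 2327 and 966 CPM in Vibrio females and 817, 1382 and 1447 CPM in control females. For the L7 genes summed, the groups overlapped in both sexes. How reads were divided between both genes was not tested.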

How the results depend on the processing

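DESeq2 called 21 genes for Vibrio in females, 11 for Vibrio in males, 28 for the difference of these effects, 11 between the sexes in controls and 13 between the sexes with Vibrio, where edgeR called 0, and no ribosomal protein gene in any. With 1 library left out, edgeR called 0 to 1 genes in each comparison and 0 ribosomal protein genes. The median of the ribosomal protein genes then ranged from 0.14 to 0.43 for Vibrio in females, -0.96 to 0.076 for Vibrio in males, -1.19 to -0.21 for the difference, -0.0063 to 1.05 between the sexes in controls and -0.36 to -0.074 with Vibrio. Its sign turned without control male 2, to 0.076 for Vibrio in males and -0.0063 between the sexes in controls. Leaving out 1 library, the fold change for Vibrio in males ranged from -1.12 to 0.040 for L8 (LOC113804304) and from -1.31 to 0.043 for L44, both turning without control male 2. Without control male 3, L12 (LOC113810192) turned to 0.13 for Vibrio in males and -0.20 between the sexes in controls, the ends of ranges from -2.83 and to 2.72. Mean shares of counts, with 1 library left out, ranged from 8.84 to 9.11% in Vibrio males, 8.66 to 13.4% in control males, 9.64 to 10.7% in Vibrio females and 8.0 to 9.2% in control females. Without the 10 most abundant genes the mean share was 10.1% in Vibrio males and 11.3% in Vibrio females, by construction larger. With RLE scaling, groups did not overlap and were lower for 1 ribosomal protein gene for Vibrio in females, beside 475 of 14295 genes tested. The numbers were 7 beside 1910 for Vibrio in males and 0 beside 1556 for males against females in controls. They were 18 beside 501 for males against females with Vibrio. Higher were 13, 2, 8 and 0 ribosomal protein genes in the same order, beside 411, 1654, 1521 and 578 genes. Of 352 alternative values of 22 single fold changes, 348 kept their direction and 4 reversed. No ribosomal protein gene was called in any setting, so the side of the threshold says nothing here. Values that kept direction could still fall close to 0. Without control male 2, S3a for Vibrio in males was -0.0012. Between the sexes in controls, L10a was then 0.035 and S5 0.095.

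Same-numbered libraries of different groups had deviations correlating at -0.57 to 0.50. With groups of 2 or 3 libraries, such values cannot settle whether the numbers pair them. With a replicate block the medians were 0.24, -0.41, -0.62, 0.46 and -0.18 in the same order of comparisons, with 0 genes called. The 2 control males, and control male 2 above all, limit every comparison that uses them.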
